A study of Mus musculus with 6 samples.

Results

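Alveolar type 1 cells are the thin, flat cells that line most of the gas-exchange surface of the lung, and the 9 genes described here, Ager, Pdpn, Aqp5, Clic5, Emp2, Cav1, Akap5, Rtkn2 and Hopx, are used as their markers. They were chosen by name, out of 21883 protein-coding genes on chromosomes 1 to 19, X and Y, and the peaks counted for each were those that overlapped its RefSeq span plus or minus 5 kb (mouse build mm10). The transgenic group was 3 mice carrying SPC-DNMTdelta3B/DG, which expresses a deletion form of the de novo DNA methyltransferase DNMT3B from the promoter of the surfactant protein C gene, and the wild-type group was 3 mice without it. For transgenic replicate 2 the genotype is spelled SPC-DNMTdeltaB/DG. All animals were 12 to 16 months old. Genomic DNA came from whole lung, and methylated fragments were captured with a methyl-CpG-binding protein and sequenced (MBD-seq). The labels name 4 founder lines, and the sources used here do not say which line each mouse came from. That promoter is active in alveolar type 2 cells. In which cells of these lungs the transgene was expressed, now or earlier, was not measured in the data used here.

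As background, methylation of CG dinucleotides at a gene's start usually goes with a silent gene, while methylation within the transcribed body is common in active and inactive genes alike. Alveolar type 2 cells are the progenitors of type 1 cells in the adult lung, and type 1 genes are switched on as the cells flatten. Capture by a methyl-binding protein needs several methylated CG dinucleotides close together, so it reads CG-poor sequence weakly. A peak from whole lung is the sum over epithelium, endothelium, stroma and blood cells. A change in the share of type 1 cells and a change in methylation per cell cannot be told apart in such a sample. No RNA was measured, so the cell type that the 9 genes stand for could not be checked against its expression here.

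The lists held 120349, 116352 and 78952 peaks in transgenic replicates 1, 2 and 3, and 60131, 111211 and 30640 peaks in wild-type replicates 1, 2 and 3. Read depth is unknown, and the number of peaks stands in for it only in part. Wild-type replicate 3 had the shortest list, and the list of wild-type replicate 2 lay within the range of those of the transgenic mice. How far list length set the spread of the wild-type values below was not tested. Each peak carries a score that is the authors' own, starts at 50 in every list and is not scaled between libraries.

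The promoter sequences of 4 members are shown because they span the range of CG content and of peaks near a start. They are RefSeq promoter windows of GRCm38.p6, from 250 bases before to 50 bases after a listed start, with every CG dinucleotide in capitals. Aqp5 has the most CG of the members and a peak just after the window, the upstream Hopx start is the only member promoter that a peak overlapped, Ager has the least CG, and Cav1 lies in the window with the fewest peaks.
Aqp5 (chr15:99590778-99591077, plus strand): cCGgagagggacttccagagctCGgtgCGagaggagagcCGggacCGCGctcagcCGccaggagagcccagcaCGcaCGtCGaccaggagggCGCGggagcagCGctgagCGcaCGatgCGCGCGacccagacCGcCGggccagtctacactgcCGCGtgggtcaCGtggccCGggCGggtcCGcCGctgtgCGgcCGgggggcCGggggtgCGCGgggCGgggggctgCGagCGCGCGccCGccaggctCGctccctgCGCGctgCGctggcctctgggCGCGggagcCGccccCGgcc
Hopx (chr5:77115074-77115373, minus strand): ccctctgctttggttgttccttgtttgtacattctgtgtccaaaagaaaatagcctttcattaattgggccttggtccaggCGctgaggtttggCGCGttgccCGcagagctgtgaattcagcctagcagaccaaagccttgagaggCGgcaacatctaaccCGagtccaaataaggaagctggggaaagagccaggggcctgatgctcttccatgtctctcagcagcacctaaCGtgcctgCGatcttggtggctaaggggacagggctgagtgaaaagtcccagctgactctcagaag
Ager (chr17:34597600-34597899, plus strand): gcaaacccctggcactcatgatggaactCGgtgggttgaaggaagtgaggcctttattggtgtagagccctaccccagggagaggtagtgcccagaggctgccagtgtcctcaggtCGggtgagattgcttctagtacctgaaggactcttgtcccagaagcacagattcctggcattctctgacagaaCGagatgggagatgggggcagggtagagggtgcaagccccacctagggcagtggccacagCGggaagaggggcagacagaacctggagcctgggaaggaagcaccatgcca
Cav1 (chr6:17306085-17306384, plus strand): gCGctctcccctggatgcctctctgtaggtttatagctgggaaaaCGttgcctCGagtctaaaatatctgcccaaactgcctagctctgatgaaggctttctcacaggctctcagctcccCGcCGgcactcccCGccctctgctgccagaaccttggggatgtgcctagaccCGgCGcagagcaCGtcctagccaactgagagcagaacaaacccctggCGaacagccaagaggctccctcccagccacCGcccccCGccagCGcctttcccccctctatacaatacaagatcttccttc

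The only motif counted was CG, which reads the same on both strands. These windows hold 46 CG in Aqp5, 8 in Hopx, 4 in Ager and 13 in Cav1, and 94.6% of all 32851 promoter windows hold at least 1. As many CG as in Aqp5 were found in 1.65% of all promoter windows, as many as in Cav1 in 37.9%, as many as in Hopx in 48.6% and as many as in Ager in 68.6%. The table lists 8 of the 9 members, with 10 starts in all. It does not list Rtkn2. Of the other listed starts, the second one of Hopx has 21 CG, the second one of Cav1 16, Akap5 27, Emp2 16, Clic5 16 and Pdpn 7.

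Across all promoters, a peak was found most often at intermediate CG content. Of the 5580 promoters with 10 to 19 CG, 11.0%, 11.0% and 7.74% were overlapped by a peak in transgenic replicates 1, 2 and 3, and 5.48%, 11.7% and 2.44% in wild-type replicates 1, 2 and 3. Of the 8701 promoters with 20 or more CG, the range was 1.36% to 3.01% over the transgenic lists and 0.701% to 2.99% over the wild-type lists. Aqp5, Akap5 and the second Hopx start belong to this CG-rich class, and none of these 3 windows was overlapped in any list. The plot of all promoters by CG count shows the same rise and fall in each library. These shares describe the capture over all genes, and no test of CG content was made on the members.

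**Figure D1:**
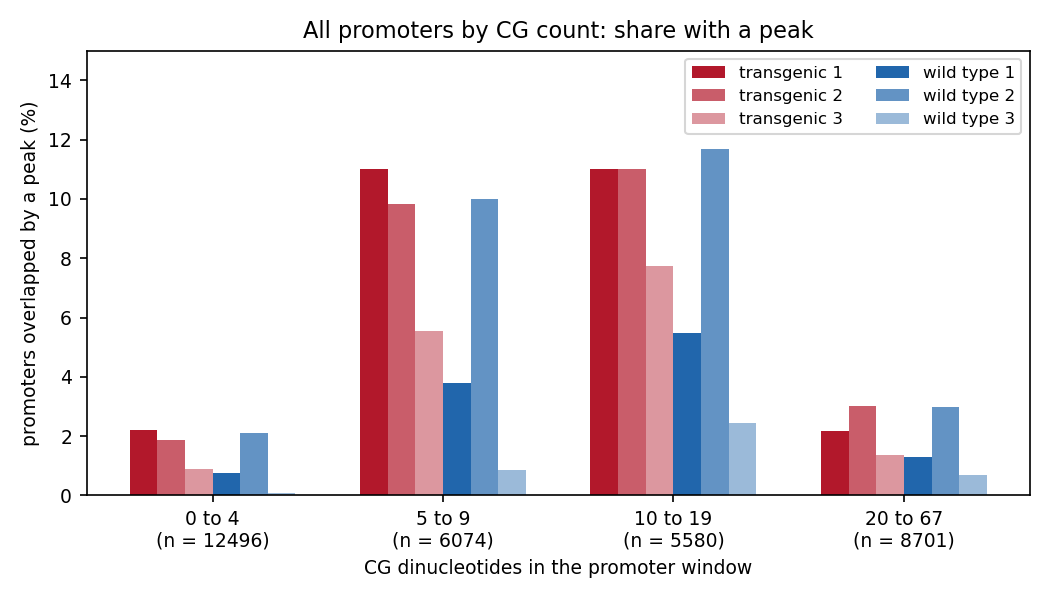
Share of all RefSeq promoter windows (%, vertical axis) overlapped by a peak in each library, for 4 classes of CG count (horizontal axis). Red bars are the 3 transgenic lists and blue bars the 3 wild-type lists. In each list both middle classes stand above the class of 0 to 4 CG, and the class of 20 to 67 CG stands below that of 10 to 19.

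Peaks at the starts of the marker genes were set against the share over all genes. A peak within 1000 bp of a start was found for 2, 3 and 2 of the 8 members with a listed start in transgenic replicates 1, 2 and 3, and for 1, 3 and 0 in wild-type replicates 1, 2 and 3. Of 17491 protein-coding genes with a listed start, 12.7%, 12.8% and 8.01% had such a peak in the transgenic lists, against 6.18%, 13.0% and 2.76% in the wild-type lists. Over any list, 3 of the 8 members (Aqp5, Clic5 and Hopx) and 18.2% of all genes had one. Clic5 is counted here through the 5′ end of its span and not through its listed start. Ager, Pdpn, Emp2, Cav1 and Akap5 had no peak at a start in any list.

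At either end of the span, plus or minus 1000 bp, 3, 4 and 3 of the 9 members had a peak in transgenic replicates 1, 2 and 3, and 3, 4 and 0 in wild-type replicates 1, 2 and 3. The share over all 21883 genes was 27.5%, 26.7% and 17.8% in the transgenic lists, against 13.2%, 26.2% and 5.57% in the wild-type lists, and 36.2% had one in any list. Ager joined Aqp5, Clic5 and Hopx here through its downstream end. With so few members, no excess over other genes is read from these counts.

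Together the 9 windows held 142 peaks over the 6 lists, of which 105 lay in gene bodies, 21 at gene ends and 16 in the flanks beyond 1000 bp. The transgenic lists contributed 32, 33 and 24 peaks and the wild-type lists 12, 37 and 4. At least 1 peak was found for 9, 8 and 8 members in transgenic replicates 1, 2 and 3 and for 5, 8 and 1 in wild-type replicates 1, 2 and 3, where 74.8%, 75.2% and 66.2% of all windows had a peak in the transgenic lists, against 60.0%, 74.4% and 37.2% in the wild-type lists. Their scores were low, with a median of 83.6 over all lists, and 90 of the 142 peaks scored under 100. The median score within the members was 112, 76.0 and 85.5 in transgenic replicates 1, 2 and 3, where all peaks of those lists had medians of 127, 103 and 91.3. In wild-type replicates 1, 2 and 3 the members' medians were 63.8, 87.8 and 66.4, and the lists' medians 75.3, 103 and 70.6. In all 6 lists the members' median was thus below that of the whole list.

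The peaks were unevenly spread over the 9 genes. Rtkn2 alone held 63 of the 142, and all 4 peaks that wild-type replicate 3 had in the 9 windows lay in it. Clic5 held 18, Ager 15, Aqp5 13, Akap5 and Hopx 9 each, Pdpn 8, Emp2 5 and Cav1 2. As a share of the window under peaks, Ager, Aqp5 and Rtkn2 had the highest means in both groups. The lowest means were those of Emp2, Cav1 and Clic5 in transgenic lungs and of Cav1, Clic5 and Pdpn in wild-type lungs. Single libraries departed from this order, as the plot of covered shares by library shows: Akap5 (6.26%) was above Aqp5 (5.85%) in wild-type replicate 2.

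**Figure D2:**
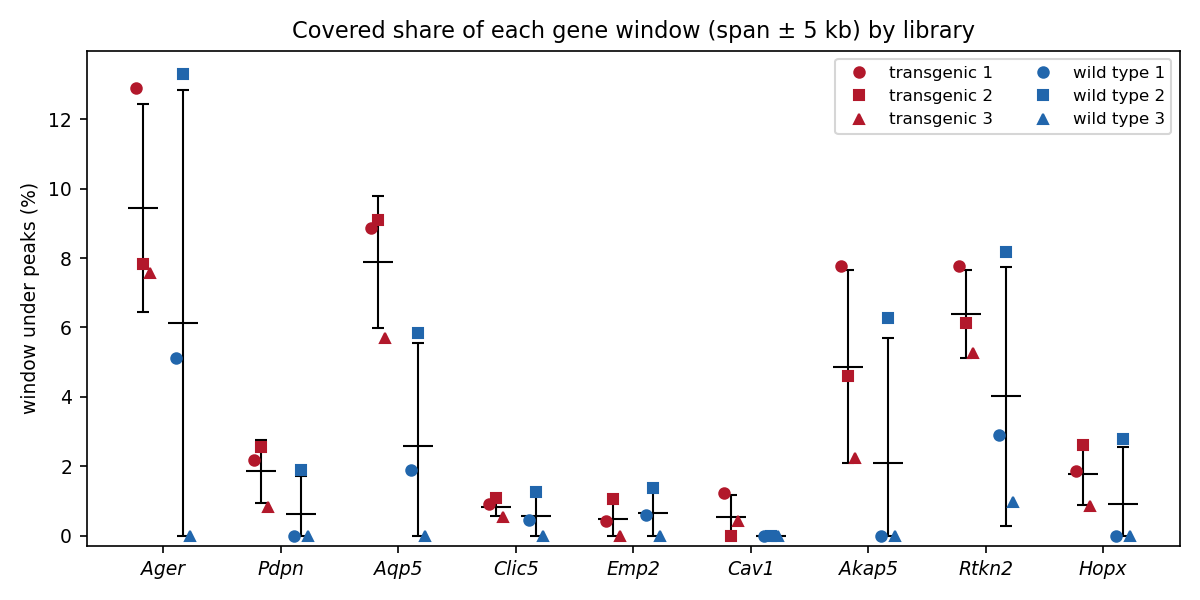
Percent of each gene window (span plus or minus 5 kb) under peaks, one point per library, transgenic in red and wild type in blue, with the group mean (horizontal tick) and 1 SD (bars, drawn no lower than 0, n = 3 each). No gene has all transgenic points above all wild-type points, because wild-type replicate 2 lies among or above the transgenic libraries, or, for Emp2 and Cav1, because a transgenic library is at 0.

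Among the receptors and surface proteins, Ager encodes the receptor for advanced glycation end products, a pattern-recognition receptor that type 1 cells carry at a high level. Its window (span chr17:34597460-34600937) was covered to 12.9%, 7.83% and 7.58% in transgenic replicates 1, 2 and 3, and to 5.12%, 13.3% and 0% in wild-type replicates 1, 2 and 3. Wild-type replicate 2 was the highest of all 6 and wild-type replicate 3 the lowest, so the groups overlapped. The mean was 9.43 ± 2.99% in transgenic and 6.15 ± 6.73% in wild-type lungs (SD, n = 3 each), with p = 0.50 by exact permutation (two-sided). With 3 animals a group this test can reach no p under 0.10.

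The peaks of the Ager window lay at its downstream end and inside a neighbouring gene on either side. A region at the downstream end (chr17:34600457-34601025) was called in all lists but that of wild-type replicate 3, with scores of 109, 76.0 and 86.4 in the transgenic lists, against 68.8 and 109 in wild-type replicates 1 and 2. Upstream, 3 regions lay inside Pbx2, a homeobox gene that ends just before Ager begins, and 1 downstream region lay inside the ubiquitin ligase gene Rnf5. These 4 flank regions therefore describe Pbx2 and Rnf5 as much as Ager. The difference of means was 5.23 percentage points in the span alone, -0.415 with flanks of 2 kb, 3.27 with 5 kb and 3.61 with 10 kb, and with 5 kb it was 0.199 without wild-type replicate 3. The start of Ager was free of peaks, the nearest lying 1451 bp from its promoter window in wild-type replicate 2.

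Pdpn encodes podoplanin, a mucin-like membrane glycoprotein also known as T1-alpha. Its window (span chr4:143267409-143299564) was covered to 2.19%, 2.55% and 0.842% in transgenic replicates 1, 2 and 3, and to 0%, 1.90% and 0% in wild-type replicates 1, 2 and 3. Wild-type replicate 2 lay among the transgenic libraries, and the other wild-type libraries below all of them. All 3 regions lay deep in the gene body, between 19557 and 25838 bp from its start. One of them (chr4:143277965-143278530) had a peak in every transgenic list, scored 107, 96.5 and 84.7, and in wild-type replicate 2, scored 96.1.

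Aqp5 encodes the water channel aquaporin 5. Its window (span chr15:99591028-99594829) was covered to 8.86%, 9.09% and 5.69% in transgenic replicates 1, 2 and 3, and to 1.89%, 5.85% and 0% in wild-type replicates 1, 2 and 3. Transgenic replicate 3 lay just below wild-type replicate 2, and otherwise the transgenic libraries were higher. The mean was 7.88 ± 1.90% in transgenic and 2.58 ± 2.98% in wild-type lungs (SD, n = 3 each; two-sided exact permutation p = 0.20, adjusted p = 0.804 over 21883 genes by the Benjamini-Hochberg method), the largest difference of means among the members.

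The 4 Aqp5 regions lay inside its short span, as the map of Aqp5 and Ager shows. The first region (chr15:99591277-99591848) began 249 bp after the start, beyond the CG-rich promoter printed above, with scores of 74.7, 54.3 and 54.0 in the transgenic lists, against 109 in wild-type replicate 2 alone. The one near the downstream end (chr15:99594049-99594461) was called in every list but that of wild-type replicate 3. Between them, the region chr15:99593074-99593475 had a peak in every transgenic list and in no wild-type list. It was the only one of the 51 merged regions in the 9 windows with that pattern, and none had the opposite pattern. Over all 166001 merged regions, 1.80% had the first pattern and 0.0145% the second. Its scores of 52.4, 56.9 and 78.2 were close to the lowest score of 50, and it was no differential region in the authors' deposited table. The whole of Aqp5 also lies within the long noncoding gene Gm34765, so the peaks cannot be assigned to Aqp5 alone.

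**Figure D3:**
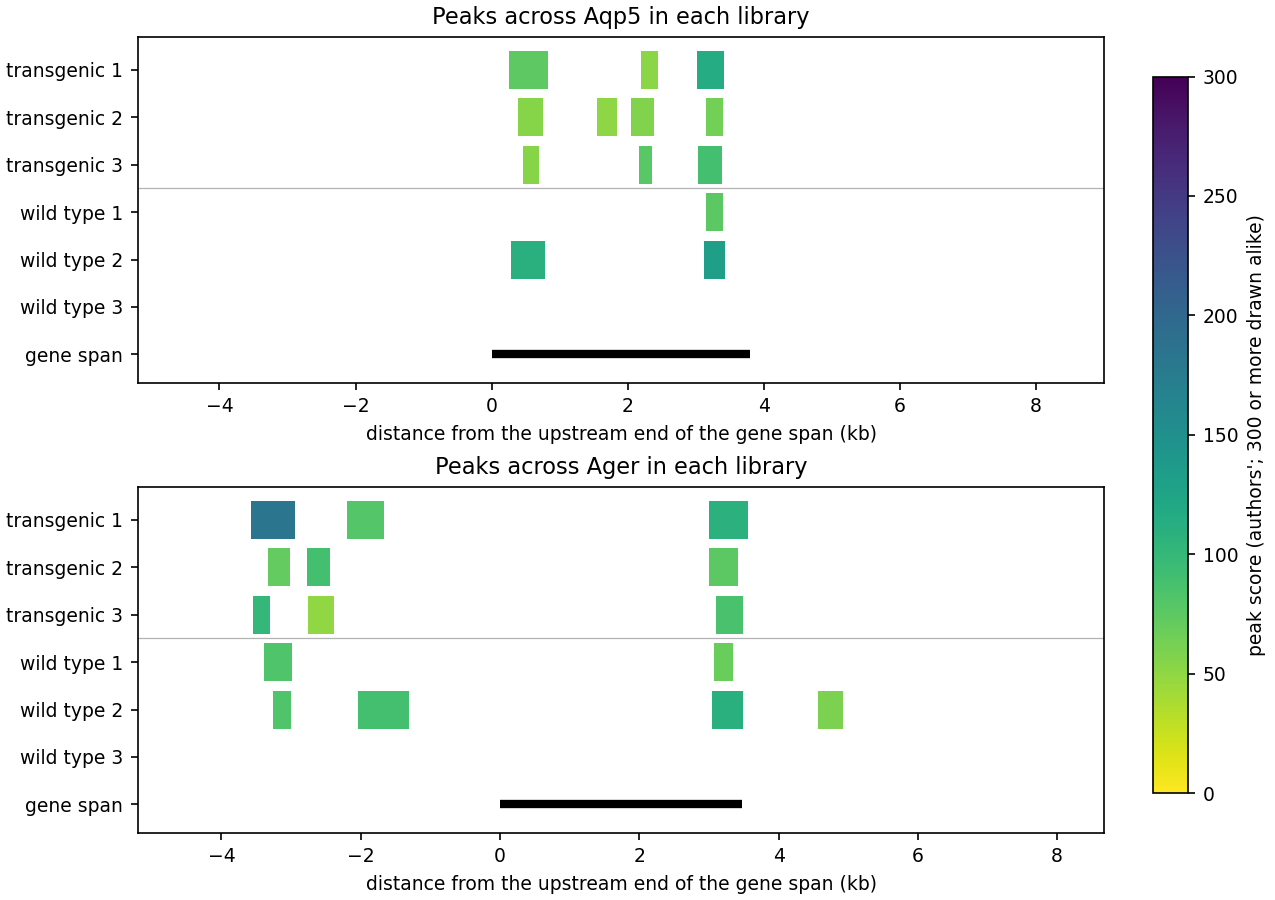
Peaks in the windows of Aqp5 (top) and Ager (bottom), by distance from the upstream end of the gene span (kb, horizontal axis) and library (vertical axis). Each block is 1 peak, darker for a higher score of the authors' peak caller, and the black bar is the gene span. In Aqp5 all blocks lie inside the span and the block near 2 kb is found in the transgenic rows alone, while in Ager the blocks lie upstream of the span, at its downstream end and, in wild-type replicate 2 alone, beyond that end.

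Clic5 encodes a chloride intracellular channel family protein that is linked to the actin cytoskeleton, and it has the longest span of the 9, 145408 bp (chr17:44134762-44280169). Its window was covered to 0.907%, 1.08% and 0.539% in transgenic replicates 1, 2 and 3, and to 0.451%, 1.26% and 0% in wild-type replicates 1, 2 and 3. The groups overlapped through wild-type replicate 2, which was the highest of all 6. The difference of means was 0.270 percentage points, and -0.0153 without wild-type replicate 3. The strongest of its 8 regions lay at the upstream end of the span (chr17:44134808-44135680), from 46 to 918 bp inside it. This region scored 259, 166 and 135 in transgenic replicates 1, 2 and 3, against 65.4 and 50.9 in wild-type replicates 1 and 2 and no peak in wild-type replicate 3. The transgenic scores were all higher than the wild-type ones, but scores are not scaled between libraries and were not tested. The share of all merged regions with such a pattern of scores is not given. The listed RefSeq start of Clic5 is another one, far inside the span, and no peak lay within 2000 bp of it.

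Emp2 and Cav1, both membrane proteins, had the fewest peaks. Emp2 encodes a tetraspan protein of the epithelial membrane protein family, and its window (span chr16:10281749-10313968) was covered to 0.443%, 1.05% and 0% in transgenic replicates 1, 2 and 3, and to 0.606%, 1.38% and 0% in wild-type replicates 1, 2 and 3. It was the only member with a lower mean in transgenic (0.497 ± 0.527%) than in wild-type lungs (0.662 ± 0.691%; SD, n = 3 each; exact permutation p = 0.80). Its most frequent region (chr16:10317901-10318351) lay upstream of the gene, in transgenic replicate 2 and wild-type replicates 1 and 2. Without transgenic replicate 3 the difference was 0.0845 percentage points and without wild-type replicate 2 it was 0.194, both the other way.

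Cav1 encodes caveolin 1, the main coat protein of caveolae, and is made by endothelial as well as type 1 cells. Its window (span chr6:17306335-17341328) was covered to 1.24%, 0% and 0.418% in transgenic replicates 1, 2 and 3 and had no peak in any wild-type list. There was 1 region, near the downstream end of the body (chr6:17338976-17339531), scored 129 in transgenic replicate 1 and 75.0 in transgenic replicate 3. With transgenic replicate 2 at 0 like the wild-type libraries, the groups overlapped (two-sided exact permutation p = 0.40).

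Among the signalling scaffolds, Akap5 encodes an anchoring protein that holds protein kinase A near the membrane. Its window (span chr12:76324617-76334517) was covered to 7.77%, 4.61% and 2.23% in transgenic replicates 1, 2 and 3, and to 0%, 6.26% and 0% in wild-type replicates 1, 2 and 3. Only wild-type replicate 2 overlapped the transgenic libraries. The main region (chr12:76326329-76327039) began 1712 bp inside the gene, after the CG-rich start, and scored 166, 147 and 92.6 in the transgenic lists, against 97.3 in wild-type replicate 2.

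Rtkn2 encodes rhotekin 2, and it held the most peaks of any member. Its window (span chr10:67979566-68058429) was covered to 7.78%, 6.12% and 5.27% in transgenic replicates 1, 2 and 3, and to 2.91%, 8.18% and 0.971% in wild-type replicates 1, 2 and 3. The groups overlapped, with wild-type replicate 2 highest and wild-type replicate 3 lowest. The mean was 6.39 ± 1.28% in transgenic and 4.02 ± 3.73% in wild-type lungs (SD, n = 3 each; two-sided exact permutation p = 0.40). Ranked among all protein-coding windows of the same library, Rtkn2 stood at the 84.3, 83.1 and 90.0 percentile in the transgenic lists, against the 83.5, 89.5 and 87.9 percentile in the wild-type lists. It was the only member with a peak in all 6 lists, which 33.3% of all 21883 windows had.

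All 63 peaks of Rtkn2 lay in its body, and both ends and both flanks were free of them. They merged into 20 regions that ran from 5407 to 73050 bp after the lower-coordinate end of the span, as the map of Rtkn2 shows. Peaks covered 9.0%, 7.08% and 6.09% of the body in the transgenic lists, against 3.37%, 9.45% and 1.12% in the wild-type lists. The pooled bodies of all protein-coding genes longer than the end windows were covered to 3.03%, 2.51% and 1.56% in the transgenic and 1.15%, 2.54% and 0.275% in the wild-type lists. Of the 20 regions, 10 had a peak in every transgenic list and 2 in every wild-type list. No share over all merged regions is given beside these counts, and wild-type replicate 3 had the shortest list. They are therefore not read as a group difference. The 2 regions with a peak in every wild-type list were also the only regions of the 9 windows found in all 6 lists.

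The first of these 2 regions (chr10:67984973-67985686) scored 302, 162 and 129 in transgenic replicates 1, 2 and 3 and 51.8, 167 and 56.9 in wild-type replicates 1, 2 and 3. The second (chr10:68032125-68032757) scored 292, 187 and 144 in the transgenic lists, against 105, 107 and 115 in the wild-type lists. At the second region the lowest transgenic score was above the highest wild-type score, and at the first wild-type replicate 2 lay among the transgenic libraries. Another strong region (chr10:68041192-68041987) scored 251, 265 and 178 in the transgenic lists, against 233 and 75.8 in wild-type replicates 2 and 3, with no peak in wild-type replicate 1. Scores are not scaled between libraries and were given no test. How many of all merged regions have scores that separate the groups is not given.

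**Figure D4:**
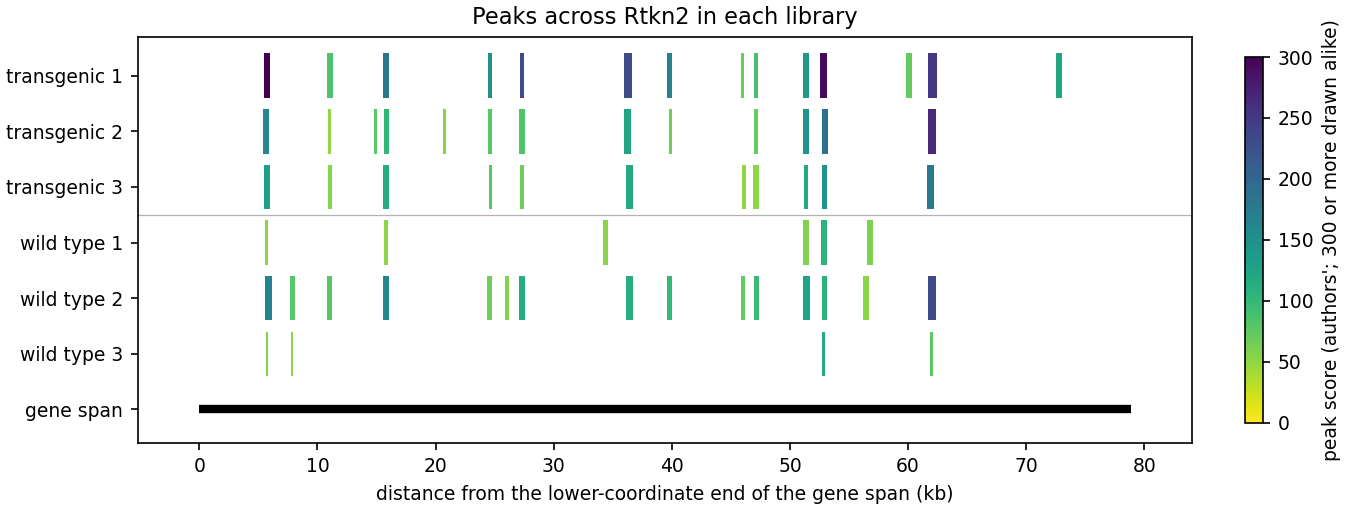
Peaks across the Rtkn2 window, by distance from the lower-coordinate end of the span (kb, horizontal axis) and library (vertical axis), darker for a higher score of the authors' peak caller. The black bar is the gene span. The same positions recur from row to row, wild-type replicate 3 keeps 4 of them, and the first 5 kb, the last 5 kb and both flanks are empty.

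Hopx encodes a small homeodomain protein that acts as a transcription cofactor without binding DNA, and it is the one nuclear regulator among the members. Its window (span chr5:77086986-77115123) was covered to 1.86%, 2.63% and 0.868% in transgenic replicates 1, 2 and 3, and to 0%, 2.80% and 0% in wild-type replicates 1, 2 and 3. Wild-type replicate 2 was again the highest. A weak region at the upstream start (chr5:77114769-77115129) ran from 6 bp before to 354 bp after it and was called in transgenic replicate 2 (score 55.8) and in wild-type replicate 2 (score 81.6). It is the only peak that touched a promoter window of a member, the one printed above with 8 CG. The second start, with 21 CG, had no peak within 1000 bp.

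No member separated the groups. In none of the 9 windows did all transgenic libraries lie above, or all below, all wild-type libraries, where 5.44% of the 21883 windows had all transgenic libraries higher and 0.0137% had them lower. The mean was higher in transgenic lungs for 8 of the 9 members and lower for Emp2, with a median difference of 1.23 percentage points over the members. Over all windows the mean was higher for 16412 and lower for 1268, with a median difference of 0.870 percentage points, so that the direction was that of the lists as a whole. With equal numbers of peaks per list, Clic5 and Rtkn2 stayed higher in transgenic lungs, Emp2 stayed lower, Ager and Aqp5 turned, and Pdpn, Cav1, Akap5 and Hopx had no peak left in any list. The direction also turned for Aqp5, Emp2 and Hopx with a score minimum of 96.3, and for Rtkn2 after scaling to the library mean. The exact p ranged from 0.20 to 0.80 over the members, and 1193 of all windows reached the smallest possible p of 0.10. The smallest adjusted p over all windows was 0.804, so this design could call no window.

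The count rested on wild-type replicate 2. Without this library, 7 of the 9 members (all but Emp2 and Cav1) had transgenic libraries above the remaining wild-type ones, and so had 47.0% of all windows. Without transgenic replicate 3 it was Pdpn and Aqp5 (28.4% of all windows), and without transgenic replicate 2 it was Cav1 (7.25%). The length of the peak lists moved with these values: the wild-type lists other than replicate 2 were shorter than every transgenic list. Each covered share was therefore also divided by the mean over all windows of the same library.

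After this scaling, Aqp5 alone had no overlap between groups, with ratios of 2.29, 2.84 and 2.83 in transgenic replicates 1, 2 and 3 and 1.31, 1.74 and 0 in wild-type replicates 1, 2 and 3 (two-sided exact permutation p = 0.10, the smallest this design can give). The same rule called 4.99% of all windows. Rtkn2 turned round, with ratios of 2.01, 1.91 and 2.62 in the transgenic lists against 2.01, 2.43 and 2.85 in the wild-type lists (exact permutation p = 0.50), and was about as far above the library mean in both groups. The plot of scaled shares shows Ager, Aqp5 and Rtkn2 above 1 in most libraries and Pdpn, Clic5, Emp2, Cav1 and Hopx below 1 in each. Akap5 was above 1 in the transgenic libraries and wild-type replicate 2 and at 0 in the others. With the 30640 top-scoring peaks of each list, Aqp5 kept a peak in wild-type replicate 1 alone (1.89% of the window, a difference of -0.63 percentage points), while Rtkn2 was covered to 2.11%, 1.28% and 3.38% in the transgenic and 0.531%, 1.38% and 0.971% in the wild-type lists.

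**Figure D5:**
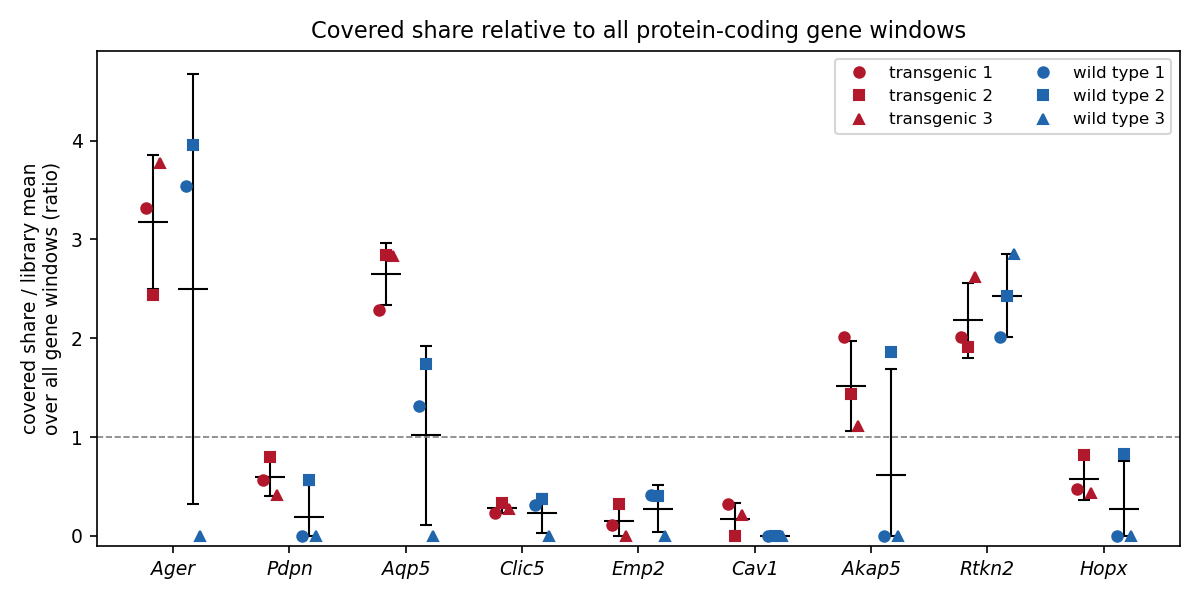
Covered share of each gene window divided by the mean over all protein-coding windows of the same library (ratio, vertical axis), one point per library, transgenic in red and wild type in blue, with group mean and 1 SD (bars drawn no lower than 0, n = 3 each). The dashed line at 1 is the library mean. Aqp5 has all transgenic points (2.29 to 2.84) above all wild-type points (0 to 1.74), and the Rtkn2 points of both groups lie between 1.91 and 2.85.

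None of the 9 windows held a differential region of the authors' deposited table, which 0.855% of all 21883 windows did. That table lists 407 regions, and its FDR and p imply 92205 regions tested (0.441%). The nearest one to any member lay 1.31 Mb from Cav1, where the authors' deposited table gives a log2 fold of 0.63 (FDR 0.00482). For the other 8 members the nearest region lay 1.55 to 4.53 Mb away. With 9 genes, a count of 0 does not depart from the share over all windows, and it does not show that the marker genes were spared.

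Other genes of type 1 cells gave a similar picture. Among 10 further type 1 genes (Cav2, Cldn18, Vegfa, Igfbp2, Gprc5a, Lmo7, Spock2, Col4a3, Col4a4 and Timp3), 1 had all transgenic libraries above all wild-type ones, the pattern of 5.44% of all windows, and none the opposite. It was the basement membrane collagen gene Col4a3, covered to 0.506%, 1.25% and 0.410% in transgenic replicates 1, 2 and 3 and to 0.229%, 0.340% and 0.105% in wild-type replicates 1, 2 and 3. Cav2, the caveolin gene beside Cav1, had no peak in its window in any list. Of 6 transcription regulators of these cells (Nkx2-1, Wwtr1, Yap1, Tead1, Gata6 and Klf5), none separated the groups, and Nkx2-1, the lineage factor of lung epithelium, had no peak in its window in any list. The median difference was 0.684 percentage points over the 10 genes and 1.36 over the 6. None of these windows held a differential region of the authors' deposited table.

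The promoter of the transgene is active in alveolar type 2 cells. Of 10 genes of those cells, 2 had all transgenic libraries above all wild-type ones. None of the 9 type 1 markers and 5.44% of all windows had this pattern. With lists this short neither count is read as a departure from that share, and the difference between the lists was not tested. They were Sftpc, covered to 7.49%, 6.13% and 4.53% in the transgenic and 3.25%, 3.68% and 1.27% in the wild-type lists, and Lamp3, covered to 2.77%, 2.80% and 1.59% in the transgenic and 0.705%, 1.44% and 0.287% in the wild-type lists (exact permutation p = 0.10 for each, adjusted p = 0.804 over all windows). The median difference over the 10 genes was 1.32 percentage points, close to the 1.23 of the type 1 markers.

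By position, the pooled ends of the 9 members were covered to 6.70%, 5.92% and 3.83% in transgenic replicates 1, 2 and 3 and to 2.5%, 5.28% and 0% in wild-type replicates 1, 2 and 3. For all protein-coding genes longer than the end windows the ends were covered to 3.51%, 3.06% and 1.80% in the transgenic and 1.24%, 3.17% and 0.295% in the wild-type lists. The members' value comes from Ager, Aqp5, Clic5 and Hopx, since the other 5 had no peak there. In the flanks the members were covered to 2.07%, 2.22% and 0.882% in the transgenic and 0.921%, 2.86% and 0% in the wild-type lists, and all genes to 3.08%, 2.51% and 1.57% in the transgenic and 1.13%, 2.67% and 0.263% in the wild-type lists. The bodies of all 9 members were covered to 3.22%, 2.60% and 1.89% in the transgenic and 0.835%, 3.30% and 0.246% in the wild-type lists. For all genes the bodies were covered to 3.03%, 2.51% and 1.56% in the transgenic and 1.15%, 2.54% and 0.275% in the wild-type lists. The members were thus lower in wild-type replicates 1 and 3 alone. Without Rtkn2, the bodies of the other members were covered to 1.60%, 1.35% and 0.710% in the transgenic and 0.125%, 1.57% and 0% in the wild-type lists. These values were below those of all genes in each library. Rtkn2 held the most peaks of the members in these same lists, so leaving it out lowers the rest by choice. Clic5, with the longest span, weighs most among the bodies that remain. No low coverage of marker bodies is therefore read from these values.

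Most regions recurred in some libraries and not in all. Of the 51 merged regions in the 9 windows, 15 were found in 1 list, 10 in 2, 8 in 3, 9 in 4, 7 in 5 and 2 in all 6. The share found in all 6 was 3.92%, against 10.9% of all 166001 merged regions, and the share in 1 list was 29.4% against 28.4%. Peaks in transgenic lists alone were found at 12 of the 51 regions (23.5%) and in wild-type lists alone at 9 (17.6%), where 26.0% and 11.4% of all merged regions had these patterns. Of these 9, 3 lay in Clic5 and 4 in Rtkn2, the genes with the longest spans.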

How the data were processed

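MBD-seq peak lists of 6 whole mouse lungs were used, 3 transgenic and 3 wild type, grouped and numbered by the sample titles. Separate animals are given as biological replicates in the series' design text. Per the submitters' processing notes, the aligner was Bowtie, the build mm10 and the tools for differential regions DiffBind and edgeR, with no version named. Each library has its own list with MACS peak names, and no source used here gives the caller's settings. The deposited score of a peak is the authors' own and carries no scaling across libraries. Concentrations and folds of the authors' deposited table are on a log2 scale, beside the authors' own p-value and FDR. How they were normalized is not stated there, and a difference in capture or depth between libraries can remain.

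From the lists, the percent of each gene window under peaks was computed for 21883 protein-coding genes of the RefSeq table of GRCm38.p6, with windows of 5 kb on each side. Ends and starts were taken as plus or minus 1000 bp. Starts are those of the RefSeq promoter table and the 5′ end of the span by the strand listed there, for 17491 genes. Peaks were merged where they touched. Starts are printed 1-based. The difference of group means was tested by a two-sided exact permutation test for every gene, with Benjamini-Hochberg adjustment over all. All 9 members are named, and of the other lists the genes whose groups did not overlap; Cav2 and Nkx2-1 were named after their values were seen. The members and lists were chosen with earlier results of these data known. The calculation was tested on simulated peak lists of the real lengths, with a wide block planted in 200 windows of the transgenic lists. All 200 were recovered, and 1884 other windows also had all transgenic lists higher. The simulation thus checked the calculation and not the specificity of such a call. Alternatives were other windows, equal list lengths, a score minimum, scaling, leaving out each library and a block for the replicate number. The authors' annotation tables of starts and CpG islands were not used. Python 3.11.15, numpy 2.4.6 and pandas 2.3.3 were used.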

Additional observations from a re-analysis of the deposited data

How the results depend on the processing

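The count of members with a peak at a start was 1 in place of 3, at either end 2 in place of 4, and the count of regions in all 6 lists 0 in place of 2, when each list was reduced to its 30640 top-scoring peaks. In that setting the difference of covered share turned to -1.01 percentage points for Ager and -0.63 for Aqp5, both through wild-type replicate 1 alone, whose list then began at a score of 74.7, against 241, 173 and 110 in transgenic replicates 1, 2 and 3. Pdpn, Cav1, Akap5 and Hopx had no peak left. With only the peaks that scored 96.3 (the pooled median) or more, 1 region was in all lists. In that setting 1 member (Clic5) had all transgenic libraries above all wild-type ones, as had 4.3% of all windows. The difference turned to -0.983 for Aqp5, 0.497 for Emp2 and -0.662 for Hopx. Leaving out each library in turn gave 0 to 7 members without overlap, where 5.45% to 47.0% of all windows had all transgenic libraries higher. It gave 2 to 8 regions in all remaining lists, and both counts rise by construction. The differences were -0.0153 to 0.615 for Clic5 and -0.495 to 0.194 for Emp2. For the other 7 members the direction stayed, with ranges of 0.199 (without wild-type replicate 3) to 6.87 (without wild-type replicate 2) for Ager, 0.847 to 4.45 for Rtkn2, 1.33 to 4.87 for Akap5, 0.385 to 1.79 for Hopx, 0.885 to 1.86 for Pdpn, 0.209 to 0.827 for Cav1 and 4.01 to 6.93 for Aqp5. The Ager difference was -0.415 with 2 kb flanks, 5.23 for the span alone and 3.61 with 10 kb. Scaling gave 1 member without overlap, the pattern of 4.99% of all windows, and a Rtkn2 difference of -0.249, as a ratio. With 2000 bp around the starts, 5 members had a peak, a count that a wider window can only raise. The share over all genes is not given for this width, nor for the lists reduced to their top-scoring peaks. No excess at starts or ends is therefore read from the counts in those settings. In these settings no member had all wild-type libraries higher, and windows of 50 and 100 kb added no differential region. The cause was not tested.

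The deviations of same-numbered libraries over all windows gave mixed correlations (-0.34, 0.11 and 0.67 for numbers 1, 2 and 3). The numbers were therefore not taken to pair the animals. With a replicate block, 2 members (Pdpn and Aqp5) were higher in the transgenic library of each pair, as were 28.8% of all windows, with an exact sign-flip p of 0.25, the smallest that 3 pairs allow. Peak lists without read counts leave depth unknown, and the empty windows of wild-type replicate 3 may lie below its detection.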
